A study of Mus musculus with 4 samples.

Results

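In the mouse stomach 1 day after the parietal cell toxicant L635, 132 of 3926 cells carried RNA counts of Nbea, Lsamp, St6galnac3 and Notum with little keratin, and 126 of them did so at levels that no cell of the other 3 libraries reached. A member was a day 1 cell barcode with at least 3 UMIs (counted molecules) summed over these 4 genes, from at least 2 of them, and with fewer than 5 UMIs of Krt8, Krt18 and Epcam, which mark epithelium, per 10000 UMIs. Cells were barcodes of at least 500 UMIs and 200 genes with at most 50% mitochondrial UMIs. The members were thus 3.36% of day 1 cells (95% Clopper-Pearson interval 2.82 to 3.97) and were compared with the other 3794 day 1 cells, of which 153 were also low in keratin and Epcam. All 4 libraries together held 38732 cells.

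The study used PIPseq T20 3' capture to count RNA in single cells from dissociated epithelium of the gastric corpus, where acid is made. The mice were wild-type C57BL6/J animals aged 6 to 7 weeks in every group. The 4 groups were mice at day 1 after a single oral dose of 350 mg/kg L635, mice at day 3 after that dose, mice at day 3 after that dose that also received AREG (amphiregulin, a ligand of the EGF receptor), and untreated mice given PBS. Tissue of all groups was dissociated in TrypLE with 10 nM Y27632, a kinase inhibitor, during 5 min at 37 °C, with 25000 cells going into each capture. There was 1 library per group, and the number of mice behind each, the AREG dose and its route were not given in the sources used here. No difference below has a replicate check, and no test was run. Intervals and floors cover counting error only.

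Nbea encodes neurobeachin, a large BEACH-domain protein that scaffolds membrane traffic at synapses, and Lsamp a membrane-anchored adhesion protein of the IgLON family that guides growing axons. St6galnac3 encodes a sialyltransferase that adds sialic acid to gangliosides and glycoproteins. Notum encodes a secreted enzyme that inactivates Wnt proteins by removing their lipid, and it is itself induced by Wnt signalling in several epithelia. The first 3 genes lie in long stretches of DNA that are mostly intron, as is common for genes of neurons, whereas Notum is short. A library primed on poly(A) tails reads mainly spliced messages of active genes, and in such data long genes do not as a rule receive more counts than short ones.

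The same rule found 9 of 7986 cells at day 3 (0.113%, interval 0.0515 to 0.214), 3 of 12923 cells at day 3 with AREG (0.0232%, 0.00479 to 0.0678) and 5 of 13897 untreated cells (0.0360%, 0.0117 to 0.0839). Those few cells were deeper, with median UMIs of 9056, 8114 and 42000 in that order, against 1888 for the day 1 members. The highest share of the 4 genes in any cell was 4811 UMIs per 10000 at day 1, 35.3 at day 3, 39.6 at day 3 with AREG and 28.7 in untreated mice. At least 100 per 10000 were found in 158 day 1 cells and in 0 cells of each other library. The library totals were 56007532 UMIs at day 1, 62591649 at day 3, 81286332 at day 3 with AREG and 98893436 in untreated mice. None of the member barcodes was a cell in another library, and the member barcodes differed from each other at 3 or more of 16 bases.

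The members fell into 2 parts of unequal size. In 126 members the 4 genes took 566 to 4811 of every 10000 UMIs, with a median of 2240. In the other 6 members they took 1.49, 1.53, 3.09, 12.6, 51.7 and 58.5 per 10000. No member lay between 58.5 and 566. All 126 cells of the upper part held each of the 4 genes.

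The 6 members under 100 per 10000 were led by other genes and entered on 3 to 6 UMIs. The deepest held 39310 UMIs, led by Tmsb4x with 418 UMIs, Fabp4 with 325 and Ly6c1 with 240. Another held 14398 UMIs of Ghrl, the hormone gene ghrelin, among 20139. The cell of 16168 UMIs held 265 UMIs from all 8 genes of the endothelial list, of which 169 were of Plvap, a protein of endothelial pores. The cells of 3177 and 580 UMIs were led by Tff1, a peptide of surface mucous cells, with 500 and 38 UMIs, and 21.6% of the UMIs of the shallower were mitochondrial. The last, of 513 UMIs, held 18 of Tff1 and 12 of Atp4a, the parietal cell acid pump. Values are therefore given for all 132 members, and for the 126 where the 6 change them.

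At the edges of the rule, 3 members had a sum of 3 UMIs and 3 had 4 to 6, while 42 low-keratin day 1 cells just missed it with 1 or 2 UMIs, 1 had 3 or more UMIs from a single gene and 110 had none. On the keratin side, 2 members had 4 to 5 UMIs of Krt8, Krt18 and Epcam per 10000, with a median of 1815 per 10000 of the 4 genes. A further 21 day 1 cells met the gene rule at 5 to 10 keratin and Epcam UMIs per 10000, with a median of 1554. In all, 32 cells with at least 100 per 10000 of the 4 genes lay over the keratin limit, at 5.02 to 46.0 per 10000, and belong to the other day 1 cells in what follows. Keratin and Epcam were at 0 UMIs in 90 members.

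**Figure D1:**
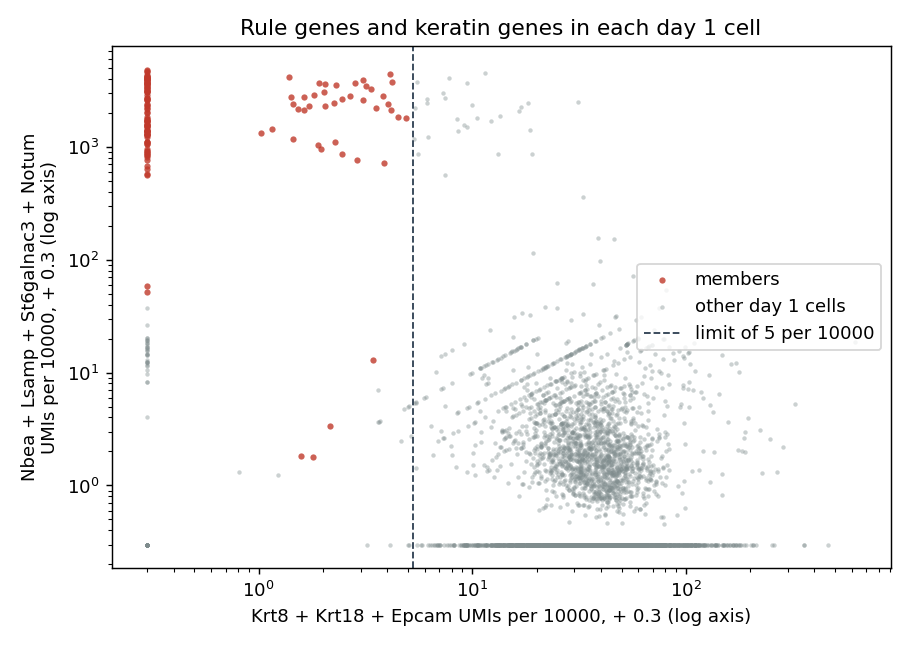
Each point is 1 day 1 cell, with UMIs of the 4 rule genes per 10000 (vertical, log axis) against UMIs of Krt8, Krt18 and Epcam per 10000 (horizontal, log axis). Red points are the 132 members, grey points the other 3794 cells, and the dashed line is the limit of 5 per 10000. A cloud of 126 members stands between 566 and 4811 per 10000, with 6 members below 100 and grey cells of the same height to the right of the line.

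Nbea gave the members more UMIs than any other gene. The 132 members held 72833 UMIs of Nbea, which is 123313 CPM (counts per 1000000 UMIs of the summed cells; Poisson interval 122419 to 124212), against 228 CPM (224 to 233) in the other day 1 cells, a log2 ratio of CPM + 1 of 9.07. Among the 126 members a cell held 13 to 4968 UMIs of Nbea, with a median of 210. Lsamp was at 55622 CPM in members and 138 CPM in other cells (log2 8.65), with 7 to 2182 UMIs per cell in the 126 and a median of 100.5. St6galnac3 was at 26270 CPM in members and 52.1 CPM in other cells (log2 8.95), with 6 to 931 UMIs per cell and a median of 50.5. Notum was at 9109 CPM in members and 15.3 CPM in other cells (log2 9.13), with 2 to 313 UMIs per cell and a median of 16. The largest share of a gene's member UMIs held by any cell was 6.82%, for Nbea, so no cell carried these levels alone. The members were selected on the UMIs of these genes, so the values are a description.

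In untreated and recovering stomach the same genes were rare, and their proportions were different. Nbea was at 8.51 CPM in day 3 cells, 8.22 CPM with AREG and 5.37 CPM in untreated cells, and Lsamp at 56.2, 42.2 and 18.2 CPM in the same order. St6galnac3 was at 7.06, 5.32 and 3.71 CPM. Notum was at 0.214, 0.116 and 0.178 CPM, from 9, 6 and 11 UMIs. For every UMI of Nbea there were 0.451 of Lsamp in the 126 members, against 6.61 at day 3, 5.13 with AREG and 3.39 in untreated cells.

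The members held 89.2% of all Nbea UMIs of day 1 cells, 86.0% of Lsamp, 88.5% of St6galnac3 and 90.1% of Notum. With the 32 high-keratin cells added, the shares were 97.7%, 93.9%, 96.8% and 98.1%. Without those 32, the remaining day 1 cells were at 49.6 CPM of Nbea, 59.9 of Lsamp, 14.6 of St6galnac3 and 2.94 of Notum. Near-empty day 1 barcodes, of fewer than 50 UMIs, stood higher than those cells, at 948, 450, 193 and 57.1 CPM. They were taken as a measure of free RNA, though whether these counts come from free RNA was not tested. The 4 genes summed to 1648 CPM in near-empty barcodes at day 1, against 103 CPM at day 3, 103 CPM with AREG and 69.0 CPM in untreated mice.

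The proportions among the 4 genes were steady from member to member. In the 126 members Nbea made up a median of 56.4% of the 4-gene UMIs, with the middle of the cells (10th to 90th percentile) at 44.6 to 61.6%. Lsamp made up 25.8% (22.4 to 29.5), St6galnac3 13.2% (10.1 to 21.2) and Notum 4.55% (2.80 to 7.85). Near-empty day 1 barcodes had close to the same proportions, with 0.474 Lsamp, 0.204 St6galnac3 and 0.0603 Notum UMIs per UMI of Nbea, against 0.451, 0.213 and 0.0739 in the 126 members and 0.434, 0.210 and 0.0689 in the 32 high-keratin cells.

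**Figure D2:**
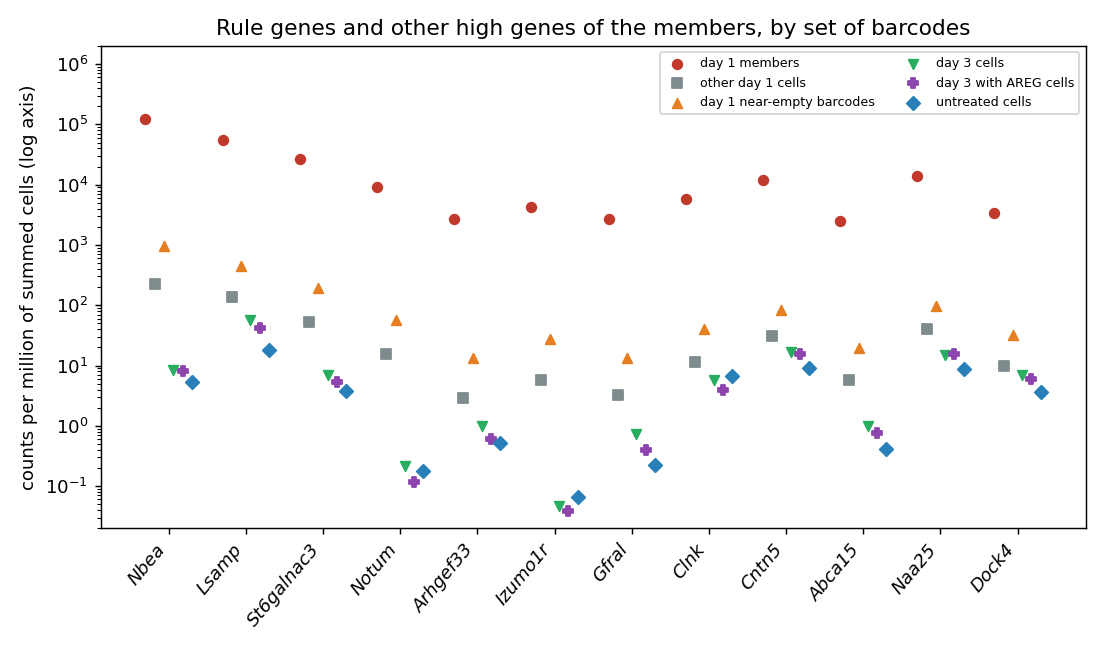
CPM (vertical, log axis) of the 4 rule genes and of 8 other genes with high log2 ratios, from UMIs summed over each set of barcodes. Red circles are day 1 members, grey squares other day 1 cells, orange triangles day 1 near-empty barcodes, and the other symbols the cells of the day 3, day 3 with AREG and untreated libraries. The members stand above every other set for each gene, from 2499 CPM for Abca15 to 123313 CPM for Nbea.

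Besides the genes of the rule, the members were led by genes with no common tissue. Of 19103 genes with at least 10 UMIs over both sets, 5673 (29.7%) were at least 4-fold higher in the members and 3306 (17.3%) at least 4-fold lower, with a median log2 ratio of 0.27. Since the members were chosen in this same comparison, nothing is read from these shares. Naa25, a subunit of an N-terminal acetyltransferase, was at 13948 CPM in members and 40.3 CPM in other cells (log2 8.40) and was found in 129 members. Cntn5, which encodes a contactin of neurons, was at 11924.5 CPM in members and 31.3 CPM in other cells.

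The highest ratio was that of Arhgef33, a guanine nucleotide exchange factor, with 2692 CPM in members and 2.89 CPM in other cells (log2 9.44), found in 110 members. Izumo1r, the egg's receptor for the sperm protein Izumo1, followed at 4284 CPM in members and 5.65 CPM in other cells. Gfral, the receptor for GDF15 in the hindbrain, was at 2702 CPM in members and 3.30 CPM in others. Clnk, an adaptor of immune cell signalling, was at 5687 CPM in members and 11.5 CPM in others. These 3 genes are known from an egg, a brain nucleus and immune cells, and each was found in 106 to 125 of the 132 members.

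The same spread of functions held further down. Abca15, a lipid transporter family gene, was at 2499 CPM in members and 5.78 CPM in other cells. Dock4, an exchange factor for Rac and Rap, was at 3383 CPM in members and 9.87 CPM in others, and P2ry14, a receptor for UDP-sugars, at 913 CPM in members and 2.17 CPM in others. Cert1, which moves ceramide between membranes, was at 4837 CPM in members and 23.1 CPM in others. Cma2, a chymase gene, Hsd17b3, which makes testosterone, Txlnb, a taxilin of muscle, Msr1, the macrophage scavenger receptor, and Rec114, a gene of meiotic recombination, were at 594, 445, 374, 442 and 743 CPM in members and at 1.73, 1.08, 0.851, 1.19 and 2.94 CPM in other cells. Ankef1, Ttll11 and Ccdc7b were also among the 20 highest, with log2 ratios of 7.79, 7.65 and 7.60. The 20 genes lie on 11 chromosomes.

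The lowest ratios belonged to short genes, several of them of metabolism. Fbp2, a gluconeogenic phosphatase, had 0 UMIs in members and 110 CPM in other cells, at least 21.6-fold lower when 3 counts over all members are taken as the floor. Slc35c1, the GDP-fucose transporter of the Golgi, was at least 17.4-fold lower, Acot13, a thioesterase, at least 14.8-fold, Arhgdig at least 13.4-fold and the foregut transcription factor Foxa3 at least 11.7-fold. Smim38, Ormdl2 and Tmem184a also had 0 UMIs and were at least 11.2-, 10.9- and 10.9-fold lower. Ugt2b34, a glucuronosyltransferase, had 2 UMIs in members and 252 CPM in other cells, 74.3-fold lower (20.6 to 614). Ctsh, the lysosomal protease cathepsin H, had 1 UMI in members and 115 CPM in others, 67.9-fold lower (12.2 to 2681). The epithelial genes that the rule limited were low by its construction, with Krt8 at 81.3 CPM in members and 2884 CPM in other cells.

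The members' counts were concentrated in a few genes at the top and spread over very many below. In the 126 members the 4 most abundant genes took 26.8% of UMIs and the top 30 took 40.6%, against 17.2% and 33.0% in other day 1 cells, where the leading genes were others. Even so, the 510748 UMIs of the 126 members reached 19138 of the 32227 genes in the files. Cells thinned to 500 UMIs showed 309 genes at the median in the 126 members and 315 in other cells, so the number of genes per UMI was about alike at the median.

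Below the leading genes, the members' counts followed the length of DNA that a gene spans. With the 30 most abundant genes of each set left out, genes that span under 10 kb received 7.35% of the UMIs of the 126 members, against 49.8% in other day 1 cells. They make up 4.82% of the summed span of all genes. Genes of 100 to 500 kb received 39.2% in the 126 members and 6.14% in other cells, and make up 39.7% of the span. Genes over 500 kb received 17.8% in the 126 members and 0.865% in other cells, and make up 15.6% of the span. The members' shares were thus close to the shares of span from 100 kb upward. In the class under 10 kb they were above it, though far nearer to it than the share of other cells.

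Expressed per 100 kb of gene, the 126 members had 37.2, 21.3, 22.5, 24.1 and 27.9 UMIs in genes of under 10, 10 to 50, 50 to 100, 100 to 500 and over 500 kb, around a mean of 24.4. The median of single genes of at least 10 kb was lower, at 10.6 UMIs per 100 kb (10th to 90th percentile 0 to 40.2). At least 1 UMI in the 126 members was seen for 29.2, 77.1, 98.2, 99.8 and 100% of the genes of these classes, in the same order. Across 19042 genes the Spearman correlation of UMIs with span was 0.66 in the 126 members, -0.019 in other day 1 cells and 0.0655 in near-empty barcodes. That is a description across genes of the same libraries, and genes are not independent replicates. With the top 30 genes kept in, genes under 10 kb gave 6.13% of UMIs in the 126 members, 60.3% in other cells and 56.3% in near-empty barcodes, and genes over 500 kb gave 37.3%, 0.579% and 1.12%. Near-empty barcodes were thus much nearer to the other cells, with a somewhat larger share from the longest genes.

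**Figure D3:**
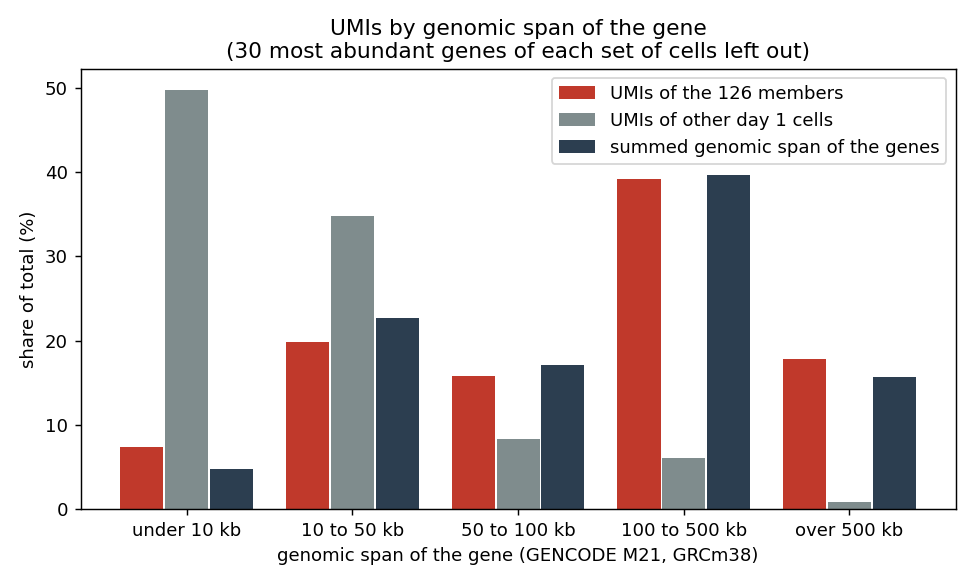
Share of UMIs (vertical, percent) by the genomic span of the gene (horizontal, 5 classes, GENCODE M21 on GRCm38), with the 30 most abundant genes of each set of cells left out. Red bars are the 126 members, grey bars other day 1 cells, and dark bars the share of the summed span of all genes. The red and dark bars run together, at 39.2% and 39.7% for 100 to 500 kb, where other cells have 6.14%.

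This held cell by cell. The share of UMIs from genes of at least 100 kb, again without the top 30, was 47.7 to 61.7% in each of the 126 members, with a median of 56.1%, and 55.0% of the summed gene span lies in such genes. Other day 1 cells had a median of 5.46%, with the 10th to 90th percentile at 3.48 to 8.94%, and the other low-keratin cells had a median of 6.36%. The 6 members under 100 per 10000 had a median of 8.03% (2.36 to 23.4), among the other cells and not among the 126. The 32 high-keratin cells had a median of 54.2%, from 4.42 to 59.9%.

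The chromosomes gave the same picture. Over the 19 autosomes, the share of the 126 members' UMIs differed from the share of gene span by 0.336 percentage points on average and by at most 1.51, against 1.35 and at most 4.55 in other day 1 cells. Chromosome 2 held 7.77% of UMIs in the 126 members and 6.11% in other cells, at 7.62% of span. Chromosome 11 held 5.14% in the 126 members and 9.78% in others, at 5.23% of span. Chromosomes 3 and 16, which carry Nbea with St6galnac3 and Lsamp, held 21.9% and 10.4% of the 126 members' UMIs with the top genes included, and 6.71% and 3.75% without them.

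**Figure D4:**
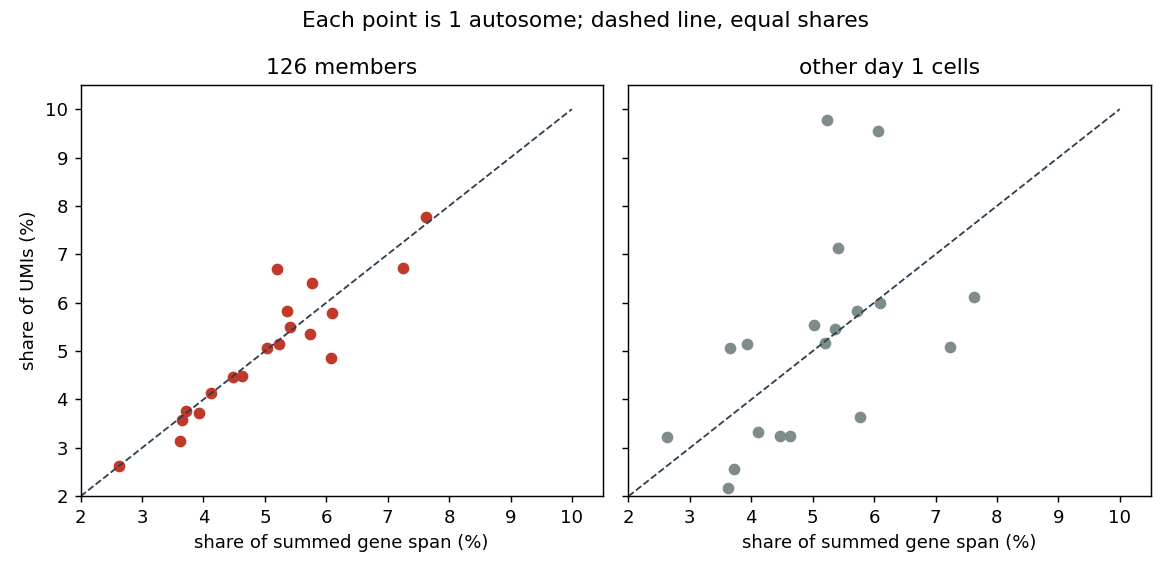
Each point is 1 of 19 autosomes, with its share of UMIs (vertical, percent, 30 most abundant genes of each set left out) against its share of summed gene span (horizontal, percent). Red points (left panel) are the 126 members and grey points (right panel) the other day 1 cells. The red points lie within 1.51 percentage points of the dashed line of equal shares, the grey points up to 4.55 from it.

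As a group, olfactory and vomeronasal receptor genes also took a share of UMIs close to their share of span. These genes, which sensory neurons of the nose express, were looked up after the values had been seen. Of 1489 such genes, 742 had at least 1 UMI in the 126 members, with 3297 UMIs in all. They summed to 6455 CPM in the 126 members, against 289 CPM in other day 1 cells and 486 CPM in near-empty barcodes. They took 1.09% of the members' UMIs without the top 30 genes and make up 1.03% of the summed span. Genes annotated as long non-coding took 9.04% of UMIs in the 126 members and 1.34% in other cells.

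Some genes exceeded that general level by far. Against the mean of 24.4 UMIs per 100 kb in the 126 members, Notum, which spans 7.39 kb, had 72821 UMIs per 100 kb. Naa25 had 17729, Izumo1r 13945, Nbea 13039, St6galnac3 2944 and Lsamp, the longest of the 4 rule genes at 2197 kb, 1495. The 20 highest named genes spanned a median of 70.0 kb (18.1 to 1244), the 10 lowest 11.9 kb (2.30 to 21.9) and all genes compared 26.9 kb. Where in these genes the reads lay is not part of a count table, and reads from the opposite strand or from overlapping genes cannot be told apart here.

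RNAs that nearly every cell carries were scarce in the members. Mitochondrial genes made up 0.0689% of UMIs in the median of the 126 members, at most 0.977%, against a median of 1.93% in other day 1 cells and 1.96% in the other low-keratin cells. Ribosomal protein genes made up 0.891% in the 126 members, 11.2% in other cells and 9.90% in low-keratin others. Actb, which encodes cytoskeletal actin, was at 102 CPM in the 126 members and 2318 CPM in other cells, and Eef1a1, the translation elongation factor, at 90.1 and 2573 CPM (the 32 high-keratin cells left out of the others for both). Even the highest member of the 126 was below the median of other cells for mitochondrial genes.

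Of 5 long RNAs that stay in the nucleus, 0 were at least 4-fold higher in the members on the scale of CPM + 1 and 1, Malat1, was lower (median log2 -0.39). Over all genes 29.7% were higher and 17.3% lower, and nothing is read from a count over 5 genes. Malat1, a long RNA of nuclear speckles, had 0 UMIs in the 126 members, below a floor of 5.87 CPM for 3 counts, and 82.0 CPM in other cells, at least 14.0-fold lower. It was at 258 CPM in near-empty barcodes. All 9 Malat1 UMIs of members lay in 3 of the 6 cells under 100 per 10000. Neat1, a long RNA of paraspeckles, had 11 UMIs in the 126 members, 21.5 CPM, against 53.9 CPM in other cells without the 32. Kcnq1ot1 and Meg3, long RNAs of imprinted loci, had higher values, at 18.6 CPM in members and 4.56 CPM in other cells and at 8.47 and 1.86 CPM. Their log2 ratios of CPM + 1, 1.82 and 1.73, fell short of the 2 that counts as 4-fold.

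Abundant gastric RNAs were present in the members at a small and even fraction of their level in near-empty barcodes. Tff1 was at 3121 CPM in the 126 members, 4.36% of its near-empty level, and the gastrokines Gkn1 and Gkn2 at 4.68% and 4.91%. The pepsinogen gene Pgc was at 3.84% and the trefoil gene Tff2 at 4.31%. The mucous, chief and neck cell genes among these thus stood in nearly 1 ratio to the near-empty barcodes. In other day 1 cells, without the 32, the same genes were at 94.3 to 135% of the near-empty level. RNAs that are not gastric were also far below near-empty barcodes. Actb was at 102 CPM in the 126 members and 2056 CPM in near-empty barcodes, and Eef1a1 at 90.1 and 1992 CPM. Ribosomal protein genes made up 0.790% and 12.7% of the summed UMIs, and mitochondrial genes 0.0713% and 2.72%.

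Cell type marker lists did not single out a cell type in the members. In cells thinned to 500 UMIs, the share with at least 2 UMIs of a list was above that of other cells, with intervals that did not overlap, for 1 list, below for 8, and overlapping for 24. With at least 1 thinned UMI 14 lists were above, and with 2 UMIs and no thinning 14, so this count depends on the threshold. Both sets of 14 span unlike tissues, among them squamous forestomach, smooth muscle, neuron, pancreatic islet, T and NK cells and the erythroid list. The 1 list above was that of lymphatic endothelium, with 2 of 132 members (1.52%) against 0 of 3794 other cells. Its summed level was 233 CPM in the 126 members and 8.77 CPM in other cells, while its defining marker Lyve1 was at 0 UMIs, and most of its members' UMIs were of Reln, a long gene of 460 kb (99 of 124).

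Most of the lists below were epithelial. Pit cell genes passed in 85.6% of members and 95.5% of other cells, neck genes in 14.4% and 74.2%, chief genes in 9.85% and 63.8%, parietal genes in 0.758% and 9.07%, and the general epithelial list in 3.03% and 70.4%. Proliferation markers passed in 0 of 132 members (interval up to 2.76%) and in 9.33% of other cells, and unthinned in 3.03% of members and 44.5% of other cells. The floor of 3 counts allows a share of up to 2.27% of members with 2 thinned UMIs. The mesothelial list, which holds the epithelial keratin Krt19 at 3177 of its 3293 CPM in other cells, passed in 1.52% of members and 34.3% of other cells, and the hepatocyte list in 0% and 3.95%. The summed pit list was at 6720 CPM in the 126 members, 154693 CPM in other cells and 146244 CPM in near-empty barcodes. Tuft cell genes were at 129 CPM in the 126 members and 172 CPM in others, with Dclk1, a gene of 297 kb, higher and Il25 at 0.

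Neuronal genes call for detail, because Nbea and Lsamp are known from neurons. The neuron list summed to 325 CPM in members and 20.3 CPM in other cells, from 192 UMIs. At least 2 thinned UMIs of it were found in 1 of 132 members (0.758%) and in 0.0527% of other cells, at least 1 thinned UMI in 21.2% of members and 1.92% of others, and at least 2 unthinned UMIs in 29.5% of members and 3.66% of others. Tubb3, Uchl1 and Prph, which encode abundant proteins of neuronal axons and cytoplasm, were at 0 UMIs. The members' counts lay in the longer genes, with Snap25 at 91.4 CPM in members and 1.62 CPM in other cells, Elavl4 at 64.3 and 1.88, and Rbfox3 at 47.4 and 1.16. The whole list had 14.4 UMIs per 100 kb in the 126 members, between the median of 10.6 and the mean of 24.4 over all genes.

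The lists of stroma were partly present. Fibroblast genes, of which 8 of 9 had UMIs in members, were at 64.6 CPM in the 126 members, 7.09 CPM in other cells and 781 CPM in the other low-keratin cells, with Col1a1 at 0 and Col3a1 at 6 UMIs in members. Smooth muscle genes were at 129 CPM in the 126 members and 2.37 CPM in other cells, with Acta2 and Des at 0 and Myocd at 102 CPM. Endothelial genes were at 1084 CPM in all 132 members but at 145 CPM in the 126, against 62.6 CPM in other cells. All 8 of them had UMIs in members, but 1 of the 6 cells under 100 per 10000 held UMIs of all 8 by itself. Macrophage and dendritic genes were at 39.2 CPM in the 126 members and 5.85 CPM in other cells, and T and NK genes at 72.4 and 3.97 CPM. Of the 10 macrophage and dendritic genes 4 had UMIs, and of the 10 T and NK genes 5. Cd68, Csf1r, C1qa, C1qc, Lyz2 and Cd74 of the macrophage list, and Trac, Cd4, Cd8a, Nkg7 and Gzma of the lymphocyte list, were at 0 UMIs. The neutrophil list had 1 UMI in all members.

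**Figure D5:**
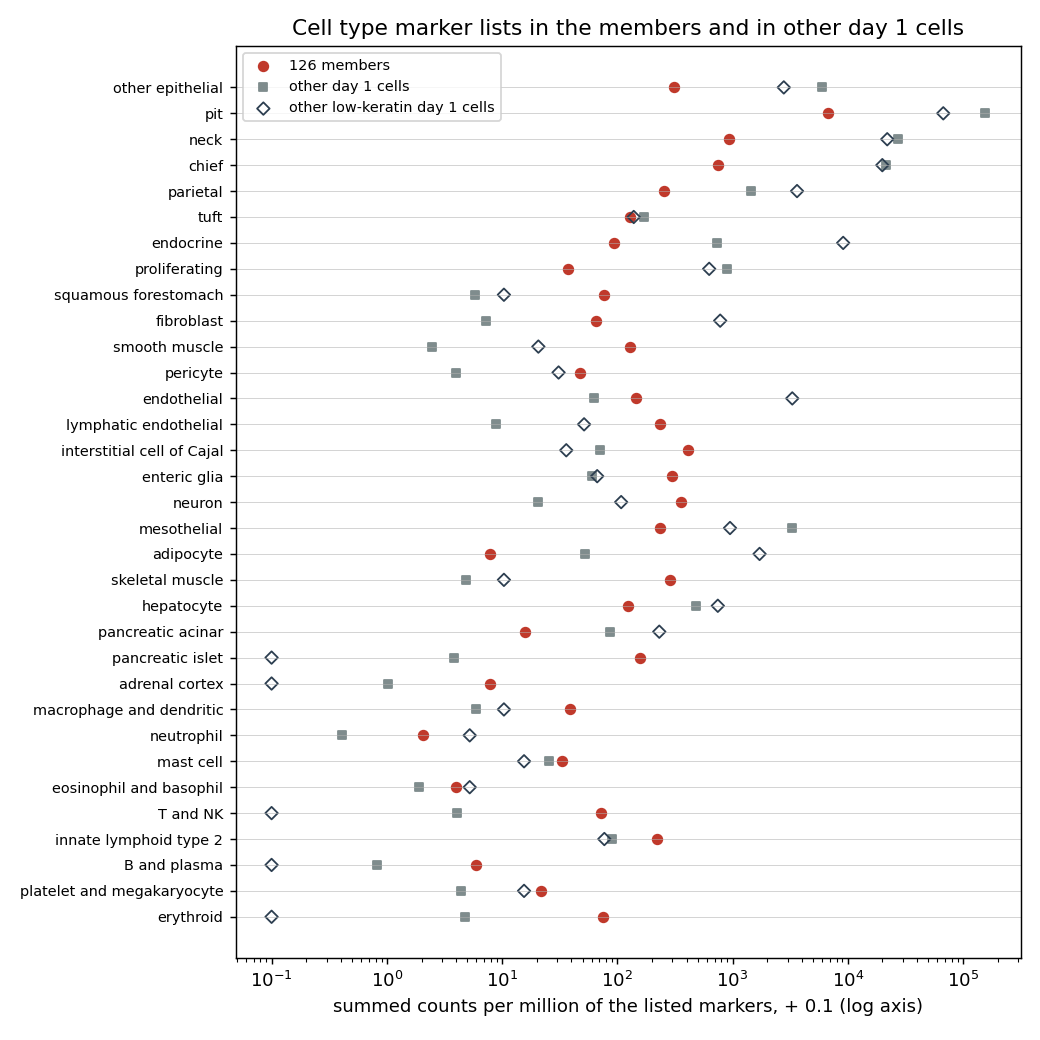
Summed CPM of each of 33 cell type marker lists (horizontal, log axis, 0.1 added). Red circles are the 126 members, grey squares all other day 1 cells, and open diamonds the other low-keratin day 1 cells. The members lie far left of the other cells for the pit, neck and chief lists, at 6720 against 154693 CPM for pit cells. They lie to the right for many scarce lists, at 360 against 20.3 CPM for neurons.

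The families of the 4 rule genes were examined next, with the rule gene itself left out of each count because it chose the members. Over all genes 29.7% were at least 4-fold higher and 17.3% lower, with a median log2 ratio of 0.27. All 3 other IgLON genes with enough counts were at least 4-fold higher, with a median of 4.83. Negr1 was at 444 CPM in members and 5.88 CPM in others, Opcml at 354 and 11.5, and Ntm at 232 and 7.99. Iglon5, at 17.2 kb the shortest, had 1 UMI in members. Per 100 kb, Negr1 had 34.7, Opcml 18.3 and Ntm 13.7 UMIs in the 126 members, within the 10th to 90th percentile of genes, and Lsamp had 1495.

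Of 8 BEACH-domain genes other than Nbea, 4 were at least 4-fold higher and 0 lower (median 2.16). Nbeal1 and Lrba, relatives of Nbea, were each at 367 CPM in members, against 26.7 and 32.9 CPM in other cells. Lyst, the lysosome regulator mutated in the beige mouse, was at 74.5 CPM in members and 10.1 CPM in others. Nbeal2 was at 13.5 CPM in members and 31.8 CPM in others. Of 15 sialyltransferase genes other than St6galnac3, 7 were at least 4-fold higher and 0 lower (median 1.40), with St8sia4 at 42.3 CPM in members and 1.44 CPM in others and St6galnac2 at 11.9 and 23.3.

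Around Notum, 11 of 25 other Wnt ligand, receptor and inhibitor genes were at least 4-fold higher and 2 lower (median 0.65), against 29.7% and 17.3% of all genes. The ligand gene Wnt9b was at 134 CPM in members and 0.284 CPM in others, from 79 UMIs in 42 members. The Wnt amplifier Rspo3 was at 37.2 CPM in members and 1.60 CPM in others, the receptor Lgr5 at 62.6 and 2.22, and the inhibitor Dkk2 at 33.9 and 0.619. The receptor Fzd5 was at 3.39 CPM in members and 36.0 CPM in others. Of 14 Wnt target and feedback genes other than Notum, 6 were higher and 2 lower (median 1.68), with 19.8 UMIs per 100 kb over that list. Lef1 was at 54.2 CPM in members and 1.24 CPM in others and Rnf43 at 69.4 and 9.18, while Axin2, the most widely used target, had 2 UMIs and Ascl2 and Sp5 had 0.

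All 22 listed synapse and axon genes were at least 4-fold higher in the members (median 5.18), against 29.7% of all genes. Together they had 42.9 UMIs per 100 kb in the 126 members. That value includes Dlg2, at 138 per 100 kb and among the 30 most abundant genes. Without those 30, genes over 500 kb had 27.9 UMIs per 100 kb and all genes a mean of 24.4. Dlg2, a scaffold of the postsynaptic density, was at 4598 CPM in members and 24.5 CPM in other cells, found in 128 members. Ptprd was at 1568 CPM in members and 36.7 CPM in others, Cntnap2 at 1285 and 22.8, Ncam1 at 1275 and 7.55, and Nrxn3 at 1163 and 16.0. Many genes of this class are long. Genes over 500 kb of any function were at least 4-fold higher in 92.6% of cases, against 8.65% of genes under 10 kb. How far length accounts for the levels of this list was not tested.

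Injury genes that mark the day 1 epithelium were low in the members. Of 15 wound and metaplasia genes, 11 were at least 4-fold lower and 0 higher (median -2.75). S100a6, of the calcium-binding S100 family, was at 704 CPM in members and 13860 CPM in other cells, Clu (clusterin) at 212 and 5272, Krt7 at 32.2 and 338, and Sprr1a at 27.1 and 483. Of 11 EGF family genes, Areg was at 16.9 CPM in members and 80.8 CPM in others and Erbb2 at 1.69 and 38.3. The long receptor genes Erbb4 (479 and 11.2 CPM) and Egfr (178 and 14.8 CPM) were higher in members. The list held 4 genes at least 4-fold higher and 3 lower, near the shares of 29.7% and 17.3% over all genes.

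Genes of the cell cycle and of respiration were lower as well. Of 14 S-phase genes 10 were at least 4-fold lower and 0 higher (median -2.67), and of 15 G2/M genes 10 and 0 (median -2.60). All 12 genes of oxidative phosphorylation were at least 4-fold lower (median -3.29), for example Cox4i1 at 225 CPM in members and 1837 CPM in others. In the 126 members alone Cox4i1 was at 74.4 CPM, since 1 of the 6 other members held 50.4% of its UMIs. Of 12 glycolysis and hypoxia genes 4 were lower and 0 higher (median -1.15). The oxidative phosphorylation list summed to 407 CPM in the 126 members, 9407 CPM in other cells and 9134 CPM in near-empty barcodes. Over all genes 17.3% were at least 4-fold lower and 29.7% higher, and nothing is read from a count of 4 among 12. The lower share varied with span, from 34.7% of genes under 10 kb to 1.13% of genes of 100 to 500 kb and 0% above. These lists were not compared with genes of like span. The counts of these lists are over all members, the 6 included. With the 6 left out, 4780 of all genes were at least 4-fold lower in place of 3306.

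Immediate early genes showed what the 6 cells contributed. Over all 132 members 1 of 12 was at least 4-fold higher and 2 were lower (median 0.46), and the list summed to 3491 CPM. In the 126 it summed to 358 CPM, against 2786 CPM in other cells. Egr1, an early growth response factor, was at 613 CPM in the 132 members, 43.1 CPM in the 126 and 209 CPM in other cells. Against shares of 29.7% higher and 17.3% lower over all genes, the stress list gave 1 higher and 5 lower of 15 (median -1.72), glucocorticoid targets 1 and 0 of 7 (median -1.10), interferon-stimulated genes 3 and 0 of 6 (median 1.90), MHC genes 1 and 1 of 6 (median -0.72) and matrix genes 8 and 1 of 18 (median 0.89). These are few genes, and counts such as that of the MHC list are near the shares over all genes. The counts are over all 132 members, and the 6 cells changed the sums. The MHC list was at 647 CPM in the 132 members, 39.2 CPM in the 126 and 763 CPM in other cells. In the same order, stress genes were at 572, 164 and 2170 CPM and interferon genes at 496, 106 and 43.2 CPM. Glucocorticoid targets were at 481, 317 and 405 CPM and matrix genes at 1075, 762 and 411 CPM. Ifitm3 of the interferon list was at 350 CPM in the 132 members and 3.92 CPM in the 126, with 90.3% of its UMIs in 1 cell.

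When day 1 cells were clustered without the 4 rule genes and the 3 filter genes, the members still lay together. At Leiden resolution 1, which gave 18 clusters, 1 cluster of 154 cells held 126 members (95.5%). These were exactly the 126 with at least 100 per 10000, and the remaining 28 cells of the cluster were all from the 32 high-keratin cells. The 6 other members lay in 5 other clusters. Since the cluster was built on other genes of the same cells, this is a description. At resolution 2 it divided into 1 cluster with 66 members, with a median of 1371 per 10000 of the rule genes and 356.5 genes per 500 UMIs, and 1 with 60 members, with 3068 per 10000 and 279 genes.

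Among the 126, the share of the 4 genes varied with depth. It had a median of 1618 per 10000 in the 38 members under 1000 UMIs, 2303 in the 55 of 1000 to under 5000 UMIs and 2600 in the 33 of 5000 or more. The 42 members with the lowest shares, 566 to 1515 per 10000, showed 380.5 genes per 500 UMIs at the median, and the 42 with the highest, 3063 to 4811, showed 216. Mitochondrial shares were low at every depth, with medians of 0.119, 0.0776 and 0.0569% from the shallowest to the deepest. Barcodes below the cell limit carried the genes too, since those of 200 to under 500 UMIs had 3112 CPM of the 4 genes, those of 500 to under 1000 UMIs 9801, those of 1000 to under 5000 UMIs 11856 and those of 5000 or more 2768.

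The label of these cells names 2 genes and no cell type, and no cell type name is given here. Among the defining markers, Tubb3, Col1a1, Acta2, Cd68 and Trac were at 0 UMIs in them, while other genes of the same lists had UMIs. In members of at least 100 per 10000, those lists were higher than in other day 1 cells. Neuron genes were at 360 and 20.3 CPM, fibroblast genes at 64.6 and 7.09, and smooth muscle genes at 129 and 2.37. Macrophage and dendritic genes were at 39.2 and 5.85 CPM, and T and NK genes at 72.4 and 3.97. Fibroblast genes were higher still in other low-keratin cells, at 781 CPM. No cell type is read from the zeros, since 3 counts over all members are 5.08 CPM. Gastric genes stood at 3.84 to 4.91% of their near-empty level. Low mitochondrial and ribosomal protein shares and a high level of the 4 genes in near-empty barcodes went with the members, and their part in the result was not tested. Median depth was 1888 UMIs in members, 2798 in all other cells and 714 in the other low-keratin cells. No doublet caller was run, and doublets were not tested. With 1 library per group, the day 1 library itself and the injury at day 1 cannot be told apart.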

How the data were processed

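The deposited values were raw UMI counts per gene and barcode, as whole numbers, which the authors left unfiltered and unnormalised in 4 libraries. Per the submitters' processing notes, reads were placed on mm39 (GRCm39). The aligner, the counter and any use of introns or strand were not given in the sources used here. UMIs of all cells in a set were added up and scaled to CPM, and sets were compared by the log2 ratio of CPM + 1, so that low genes show less than their full difference. Added counts carry exact Poisson and shares exact Clopper-Pearson 95% intervals. The members, markers and gene lists were chosen with earlier results of these data known. Named genes were the 20 highest and 10 lowest log2 ratios among genes that reached 50 CPM in a set and 10 UMIs over both, found in at least 5 cells of the higher side and with no cell over 50% of its UMIs, without mitochondrial, ribosomal protein, haemoglobin, immunoglobulin and unnamed genes, plus members of the rule and lists. The split of the members at 100 per 10000 and the receptor gene count were chosen after seeing the data. Gene spans came from GENCODE M21 on GRCm38 by gene identifier (32149 of 32227 matched) and served as lengths only. Of the listed genes, 6 (Dpcr1, Gif, Gkn4, Gm26917, Tiki1 and Troy) had no entry under that name. Clustering used scanpy 1.11.5, and other steps numpy 2.4.6, pandas 2.3.3 and scipy 1.17.1 in Python 3.11.15. The scripts were tested on simulated data. Some genes that met these rules are not reported here.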

Additional observations from a re-analysis of the deposited data

Results flagged for a closer look

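Barcodes too shallow to count as cells also met the gene rule. At day 1, 471 of 55455 barcodes with 50 to under 500 UMIs (0.849%) met the rule for the 4 genes, against 0 of 96983 at day 3, 1 of 257776 at day 3 with AREG and 0 of 365139 in untreated mice. They lie outside the comparisons above and were noted because the other libraries have almost none. Their median share of the 4 genes was 1000 UMIs per 10000, and Nbea was at 65895 CPM over all of them. Per UMI of Nbea they held 0.513 UMIs of Lsamp, 0.335 of St6galnac3 and 0.108 of Notum, against 0.451, 0.213 and 0.0739 in the 126 members. Izumo1r, at 0.0763 in them and 0.0347 in the 126 members, and Naa25, at 0.235 and 0.113, differed by more.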

How the results depend on the processing

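The share of cells depended on the keratin limit. Without it the rule took 19.2% of day 1 cells in place of 3.36%. The 622 added cells had a median of 23339.5 UMIs and 1.89 per 10000 of the 4 genes, 140 genes were then at least 4-fold higher and 12 lower, and Acot13, Smim38 and Ctsh reversed to log2 ratios of 0.045, 0.062 and 0.25. All cells of at least 100 per 10000, an alternative added after seeing the data, were 4.02%. The counts of 5673 higher and 3306 lower genes became 2940 and 2351 against other low-keratin cells, 3308 and 5646 in cells of 1000 to 10000 UMIs, 2020 and 1230 with a pseudocount of 10 CPM, and 4798 and 5104 with CPM taken after removal of mitochondrial genes, ribosomal protein genes and the top 20 others. They became 4960 and 4865 as means over cells, 5740 and 4672 without the deepest 5% of members, and 5644 and 4780 without the 6 members under 100 per 10000, which was added after seeing the data. Marker lists above other cells numbered 14 in place of 1, and lists below 5 in place of 8, with at least 1 UMI, and 14 were above without thinning. The largest cluster share was 50% at resolution 2 and 100% without those 6 members, against 95.5%. For single named genes, 235 of 447 values over 15 settings stayed within counting error, 209 moved and 3 reversed. No paired analysis was possible because each group is 1 library and no replicate numbers are given. Genes of few UMIs limit the lower calls, since 3 counts over the members are 5.08 CPM.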
